A study of Mus musculus with 3 samples.

Results

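Oxidative phosphorylation genes were described in single cells of the mouse flexor digitorum longus (FDL) tendon. The members are 106 of the 32285 genes counted, chosen by a rule on gene symbols with earlier results of these data known. The nuclear set holds 93 genes: 36 subunits and 8 assembly factors of complex I (Nduf genes), 4 subunits of complex II (Sdh), 8 of complex III (Uqcr), 20 of complex IV (Cox, with Ndufa4 and Ndufa4l2) and 17 of complex V (Atp5). The mitochondrial set holds the 13 protein-coding genes of the mitochondrial genome.

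Each group was 1 library made from 16 pooled FDL tendons of mice of both sexes, all labelled as strain C57BL/6J. 6 M DTR mice carried Scx-Cre and the Cre-activated diphtheria toxin receptor (Scx-Cre+; DTR F/+), and 6 M WT mice carried the receptor allele without Cre (Scx-Cre-; DTR F/+). Both received 5 daily injections of diphtheria toxin (DT) at 3 months of age, the age that their labels give, and were harvested at 6 months by the study's methods. 21 M B6 mice were C57BL/6J animals of 21 months with no treatment. Scx-Cre is active in all cells of the Scleraxis lineage and not in tendon cells alone, so 6 M DTR is a model of lineage depletion. Tendons of 6 M WT were digested for 120 min and those of both other groups for 90 min, and in any comparison with 6 M WT the effect of digestion cannot be told apart from those of genotype and age. The 21 M B6 group differs from both 6-month groups in age, genotype and DT treatment at once, and these effects cannot be told apart either. No group has a replicate library, and differences between libraries were therefore not tested.

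Complexes I to IV pass electrons from NADH and succinate to oxygen, complexes I, III and IV pump protons across the inner mitochondrial membrane, and complex V uses the proton gradient to make ATP. Complex II is encoded wholly in the nucleus, whereas complexes I, III, IV and V mix nuclear subunits with subunits made inside the organelle from polycistronic mitochondrial transcripts. Tendon fibroblasts live in a sparsely vascularised matrix and are known for a low oxygen demand.

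Promoters are shown first because many nuclear members are known targets of nuclear respiratory factor 1 (NRF1), a transcription factor of mitochondrial genes. RefSeq promoters, from 250 bases before to 50 bases after the start on GRCm38.p6, were matched for 75 of the 93 nuclear members. The NRF1 motif, GCGCA, any base and then GCGC, shown in capitals in the stretches below, was in 19 of the 75 (25.3%) and in 5.19% of the promoters of all 27025 genes. The ETS motif CCGGAAG was in 19 of the 75 (25.3%, all genes 9.93%), the YY1 motif AAGATGGC in 10 (13.3%, all genes 3.19%) and the ERR motif TCAAGGTCA in 2 (2.67%, all genes 0.466%). By complex, the NRF1 motif was in 6 of 14 promoters of complex V, 2 of 3 of complex II, 7 of 32 complex I subunits, 2 of 7 assembly factors, 1 of 5 of complex III and 1 of 14 of complex IV. All 4 motifs were searched on both strands, and the ETS motif ends with the letters AAG that open the YY1 motif, so that both can share a site. These are matches of letters and not evidence of binding. The 6 stretches are printed 5′ to 3′ on the strand of the gene because their genes recur in the comparisons that follow.
Atp5g2, chr15:102671065-102671104, minus strand: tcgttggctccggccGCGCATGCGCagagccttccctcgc
Atp5k, chr5:108434425-108434464, minus strand: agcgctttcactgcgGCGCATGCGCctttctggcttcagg
Ndufa11, chr17:56717687-56717726, plus strand: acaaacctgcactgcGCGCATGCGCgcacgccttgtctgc
Ndufaf4, chr4:24897955-24897994, plus strand: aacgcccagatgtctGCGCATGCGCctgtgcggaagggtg
Sdhd, chr9:50603904-50603943, minus strand: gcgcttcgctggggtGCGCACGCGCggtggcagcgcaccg
Sdha, chr13:74350314-74350353, minus strand: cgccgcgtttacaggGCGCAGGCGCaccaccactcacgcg

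Values of the 3 libraries are given in 1 order throughout, with 6 M WT first, 6 M DTR second and 21 M B6 last. Barcodes were kept if they held 1000 to 5000 genes and no more than 10% mitochondrial counts, which left 8357, 6554 and 4798 cells with median depths of 13008, 12328 and 12914 unique molecular identifiers (UMIs). Cells were placed in a class by markers that are no members: a cell needed at least 2 UMIs for each of 3 markers of 1 class only. Each of the 7 marker lists was highest in its own class and had all of its genes detected there in every library. The gate uses the same markers, so these values are no independent check of the classes. The paper divides tenocytes into 3 subpopulations whose shares differ between these groups. The tenocyte-like gate does not separate them, and the part of such a change of mixture in its library ratios was not tested. Tenocyte-like cells numbered 5484, 2984 and 994 in the 3 libraries, epitenon-like cells 785, 705 and 2067, macrophage-like cells 519, 1063 and 461, T cell-like cells 113, 283 and 65 and endothelial-like cells 145, 146 and 122. Mural-like cells (133, 184 and 34) and Schwann-like cells (55, 59 and 36) had fewer than 50 cells in 21 M B6. The epitenon-like gate cuts through a continuum, since 40.3%, 50.8% and 25.9% of its cells sat at 3 markers in the 3 libraries. Cells with 2 of its markers that fell in no class numbered 305, 349 and 324. The share of cells at the edge of this gate thus differed between the libraries compared. Between 61 and 76 barcodes were shared by a pair of libraries, 13 to 15 of them among the kept cells. The 21 M B6 library stood apart, with 56.5% of its barcodes over the mitochondrial limit against 27.6% and 43.1% of the 6-month barcodes. Levels are given as CPM, the counts of a gene summed over a class and scaled to a common total, and intervals are exact 95% intervals that cover counting error only.

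By CPM the 2 sets differed in opposite directions in the 21 M B6 library. In tenocyte-like cells the 93 nuclear genes summed to 14595, 14688 and 11926 CPM. The 13 mitochondrial genes summed to 28376, 29205 and 54344 CPM in the same cells. The 6-month libraries were close in both sets, and 21 M B6 was low in the nuclear set and high in the mitochondrial set. The ratio of 21 M B6 to 6 M WT was 0.817 (0.813 to 0.822) for the nuclear set and 1.92 (1.91 to 1.92) for the mitochondrial set. Per UMI of the nuclear genes there were 1.94, 1.99 and 4.56 UMIs of the mitochondrial genes. Over all 7221 genes with a mean of at least 10 CPM, the median ratio of 21 M B6 to 6 M WT was −0.25 on the log2 scale in tenocyte-like cells, so most genes were lower there and the nuclear set has to be read against that shift. Scaling by trimmed mean of M values (TMM), which centres on the bulk of genes, gave a nuclear ratio of 0.946 and a mitochondrial ratio of 2.22.

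Epitenon-like cells, named after the cell layer around the tendon, held the nuclear set at 15255, 16039 and 13248 CPM in the 3 libraries and the mitochondrial set at 26151, 25438 and 43527 CPM. The ratio of 21 M B6 to 6 M WT was 0.868 for the nuclear set, which turned to 1.05 under TMM, and 1.66 for the mitochondrial set. Macrophage-like cells had nuclear levels of 16141, 16508 and 14949 CPM and mitochondrial levels of 29789, 31091 and 56305 CPM, which gave ratios of 0.926 and 1.89. The mitochondrial set was thus higher in 21 M B6 in each of these classes under both scalings, while the nuclear set was lower by CPM in all 3 and under TMM in tenocyte-like and macrophage-like cells only. In T cell-like cells the nuclear set stood at 18506, 17269 and 18406 CPM and the mitochondrial set at 40895, 36566 and 65742 CPM. In endothelial-like cells the values were 14000, 14976 and 14458 CPM for the nuclear set and 42013, 40085 and 63011 CPM for the mitochondrial set. In these 2 classes the nuclear ratio of 21 M B6 to 6 M WT was 0.995 (0.973 to 1.02) and 1.03 (1.01 to 1.05), both above 1 under TMM, and the mitochondrial ratio was 1.61 and 1.5.

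**Figure D1:**
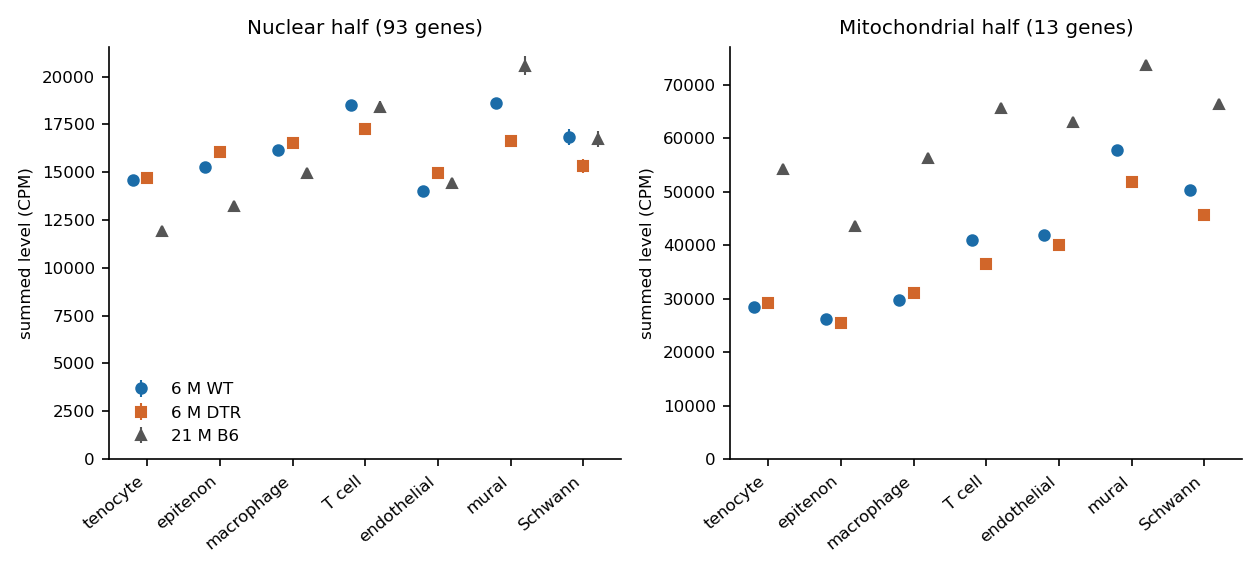
Summed level (CPM, linear axes from 0) of the 93 nuclear genes (left) and the 13 mitochondrial genes (right) in 7 marker-gated classes, 1 point per library with exact 95% counting intervals. In tenocyte-like cells 21 M B6 lies at 11926 CPM for the nuclear set, below 14595 and 14688 CPM, and at 54344 CPM for the mitochondrial set, above 28376 and 29205 CPM.

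Mural-like cells, the pericytes and smooth muscle of vessels, had the highest mitochondrial level of the 7 classes in each library, with 57788, 51814 and 73697 CPM. Their nuclear set stood at 18624, 16635 and 20586 CPM. Schwann-like cells followed in the mitochondrial set with 50378, 45649 and 66518 CPM. Epitenon-like cells had the lowest mitochondrial level in each library. The order of the classes in the mitochondrial set therefore ran the same way at its ends in all 3 libraries.

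The mitochondrial limit of 10% touched the classes unequally. Among barcodes with 1000 to 5000 genes and no limit, the median mitochondrial share of a tenocyte-like barcode was 2.77%, 2.87% and 6.08%. In mural-like barcodes it was 6.26%, 5.88% and 11%, so the limit removed 17.4%, 11.1% and 61.4% of the mural-like barcodes. It removed 17.0% of the tenocyte-like barcodes of 21 M B6 and 3.91% of the epitenon-like ones, against 0.670% and 0.507% in 6 M WT. The difference between libraries was smaller with a lower limit: in tenocyte-like cells the mitochondrial ratio of 21 M B6 to 6 M WT was 1.51 under a limit of 5% and 2.17 with none.

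**Figure D2:**
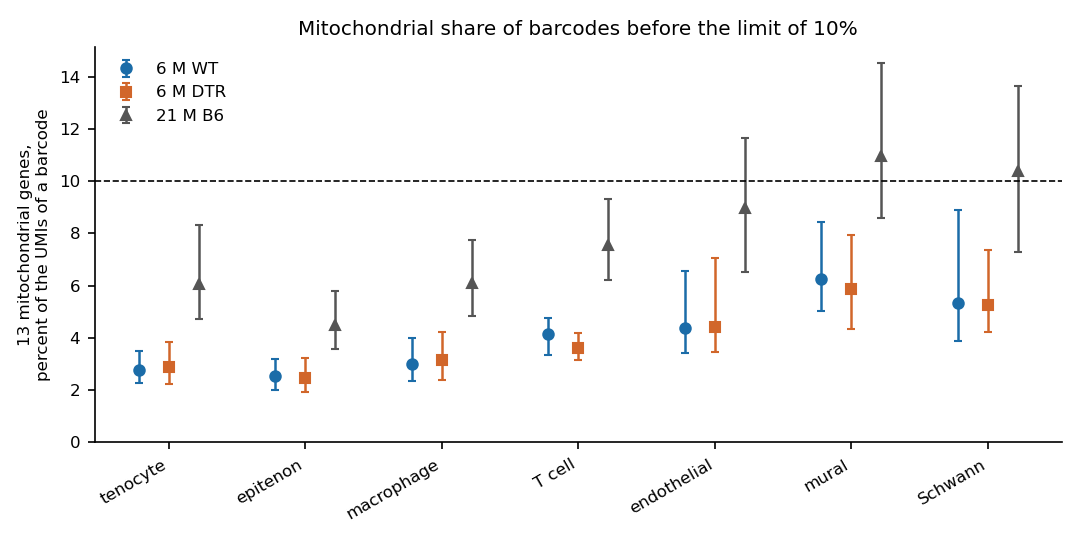
Mitochondrial share (% of the UMIs of a barcode, 13 genes) by class and library among barcodes with 1000 to 5000 genes, as medians with quartiles; the dashed line is the limit of 10%. The 21 M B6 medians lie above both 6-month medians in every class, from 4.49% in epitenon-like to 11% in mural-like barcodes.

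The nuclear set was also set against the mitochondrial share of the cells, as CPM of nuclear-encoded UMIs. In tenocyte-like cells of 6 M DTR it was 15119 in barcodes under 2.5% mitochondrial counts, 13110 between 7.5 and 10%, and 11216 between 10 and 20%. In 6 M WT it was 15324.5, 14504.5 and 12779.3 in the same bins. In 21 M B6 it ran the other way, from 12098 between 2.5 and 5% to 14034 between 7.5 and 10% and 15904 between 10 and 20%. Summed markers of muscle fibres (8 genes) moved with it there, from 94.5 to 589 and 896 CPM of nuclear-encoded UMIs. In 6 M DTR these markers were also higher at higher mitochondrial shares (98.6, 230 and 315 CPM of nuclear-encoded UMIs in the bins given for it), while the nuclear set was lower. The part of muscle RNA in the nuclear level of these barcodes was not tested, and without barcodes that held a muscle fibre UMI the nuclear ratio of 21 M B6 to 6 M WT in tenocyte-like cells was 0.791. Over the same bins of 21 M B6 the nuclear set was at 16597.5, 14871.3 and 16369.3 in macrophage-like cells. It was at 13540.6, 14885.3 and 13138.4 in epitenon-like cells, so neither class rose throughout. Median depth of the tenocyte-like barcodes fell over the bins given, from 14733 to 5160 UMIs in 21 M B6 and from 15129 to 3908 UMIs in 6 M DTR.

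Other measures of the same cells also differed between the libraries. In tenocyte-like cells 11 heat shock genes summed to 3860, 3340 and 8964 CPM, 10 immediate early genes to 7197, 10803 and 12862 CPM, and the nuclear-retained RNAs Malat1 and Neat1 to 29587, 36144 and 24783 CPM in the 3 libraries. The muscle fibre markers, all 8 detected, summed to 46.3, 113 and 187 CPM. The 4 haemoglobin genes summed to 1150, 4723 and 1036 CPM, highest in 6 M DTR. Their part in the levels of the members was not tested.

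The nuclear set kept its make-up. Complex I subunits gave 30.8% of its UMIs in tenocyte-like cells of 6 M WT, complex IV 30.7%, complex V 26.3%, complex III 9.43%, complex II 1.5% and complex I assembly factors 1.2%. The furthest departures in these cells were complex IV at 32.2% in 6 M DTR and complex V at 28.0% in 21 M B6. In tenocyte-like cells 84 of the 93 nuclear genes had a mean of at least 10 CPM over the libraries and were compared. Between 21 M B6 and 6 M WT 81 were lower and 3 higher. A gene was called lower at a ratio of 0.8 or less and higher at the inverse of 0.8 or more, and 37 were called lower and 0 higher, where 39.5% of all 7221 genes were called lower and 9.72% higher. At a fold of 1.5 there were 9 lower, where 11.4% of all genes were. The median of the nuclear set was −0.31 on the log2 scale beside −0.25 for all genes, so its share near the background is not a result about these genes. Under TMM 11 were lower and 1 higher past the fold, and the shares of all genes called under TMM were not computed.

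Complex I holds the NADH dehydrogenase. By CPM, 18 of its 36 subunits were lower past the fold in 21 M B6 tenocyte-like cells, with a median of −0.33. Of all genes 39.5% were lower past the fold, and counts by complex were not computed under TMM. Ndufa11, an accessory subunit of the membrane arm whose promoter is printed above, was at 142, 139 and 92.2 CPM, a ratio of 0.649 to 6 M WT. Ndufc2 was at 81.7, 81.2 and 52.9 CPM (0.648) and Ndufb6 at 112, 102 and 72.8 CPM (0.651), both accessory subunits of the membrane arm. In all 3 genes 21 M B6 lay below a pair of close 6-month libraries. Ndufa6 was at 237, 253 and 236 CPM and Ndufa3 at 39.9, 42.8 and 42.7 CPM, with ratios of 0.995 (0.955 to 1.04), which is above 1 under TMM, and 1.07 (0.971 to 1.18). The intervals of both hold 1.

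The assembly factors of complex I build the enzyme without staying in it, and 5 of the 8 were compared. By CPM, Ndufaf4 was the only nuclear member lower past the fold in 6 M DTR tenocyte-like cells, at 57.8, 32.6 and 47.7 CPM, whereas 6 members were lower under TMM. Its ratio of 6 M DTR to 6 M WT was 0.563 (0.528 to 0.599), and 13.7% of all genes were called lower by CPM in this comparison. The share of all genes lower under TMM was not computed. In epitenon-like cells Ndufaf4 stood at 42.4, 35.2 and 34.3 CPM (6 M DTR to 6 M WT 0.829, 0.727 to 0.945). Ndufaf7, a methyltransferase that acts on complex I, was at 11.7, 12.5 and 6.48 CPM in tenocyte-like cells, low in 21 M B6.

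Complex II is succinate dehydrogenase, and its 4 genes had the lowest median of the complexes by CPM in 21 M B6 tenocyte-like cells, at −0.45. Lower past the fold were 3 of 4, where 39.5% of all genes were. Sdhd, a membrane anchor, was at 44.9, 44.0 and 29.1 CPM (0.647), and Sdhb, the iron-sulphur subunit, at 75.7, 70.0 and 51.5 CPM (0.680). Sdha, the flavoprotein subunit, was at 59.3, 55.6 and 52.8 CPM (0.891 by CPM and above 1 under TMM). The NRF1 motif is in the printed promoters of both Sdhd and Sdha, and a link of the motif to the ratios was not tested. In epitenon-like cells complex II again had the lowest median, −0.39, with Sdhd at 55.9, 54.3 and 39.6 CPM and Sdha at 75.5, 72.5 and 72.2 CPM.

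Complex III, the cytochrome bc1 complex, had 5 of 8 genes lower past the fold by CPM in 21 M B6 tenocyte-like cells, with a median of −0.38. This count and those of complexes IV and V stand beside 39.5% of all genes called lower. Uqcrc2, a core subunit, was at 68.7, 62.0 and 47.0 CPM in the 3 libraries (0.684), while the hinge protein Uqcrh was at 366, 365 and 347 CPM (0.948 by CPM and above 1 under TMM). In complex IV, cytochrome c oxidase, 6 of the 14 genes compared were lower past the fold, with a median of −0.31. Its isoforms are described below. Complex V, the ATP synthase, had 3 of 17 genes lower past the fold and a median of −0.24, the nearest of the complexes to that of all genes. Its 3 genes for the c subunit of the membrane ring stood at 187, 164 and 150 CPM (Atp5g1), 233, 239 and 164 CPM (Atp5g2) and 133, 127 and 117 CPM (Atp5g3). Atp5g2 was low in 21 M B6 with a ratio of 0.704 to 6 M WT. Atp5k, a membrane subunit of the same complex, was at 130, 141 and 142 CPM (1.09, 1.04 to 1.15). Both have the NRF1 motif in their printed promoters, and its link to the ratios was not tested.

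**Figure D3:**
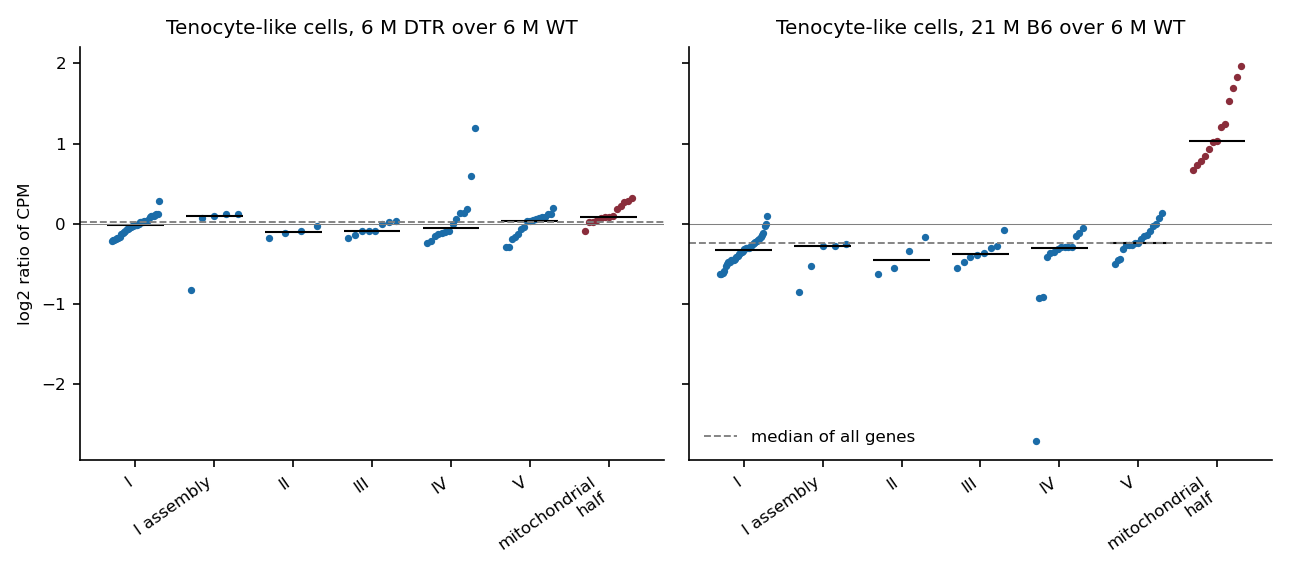
Log2 ratio of CPM in tenocyte-like cells for each compared member by complex, 6 M DTR over 6 M WT (left) and 21 M B6 over 6 M WT (right); points are genes, black bars medians and the dashed line the median of all genes. On the right the nuclear complexes lie around the dashed line at −0.25 and all 13 mitochondrial genes lie above 0.

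Between 6 M DTR and 6 M WT the nuclear set differed little in tenocyte-like cells, with 37 genes higher and 47 lower, a median of −0.02 beside 0.03 for all genes, and 2 genes called higher where 16% of all genes were. The 2 were the complex IV isoforms Ndufa4l2 and Cox4i2. Atp5b, the catalytic beta subunit of complex V, was at 329, 269 and 273 CPM, and Atp5o, the oligomycin sensitivity subunit, at 192, 157 and 141 CPM. In the sums of this comparison the direction depended on scaling: the nuclear ratio was 1.01 by CPM and 0.930 under TMM, and the mitochondrial ratio 1.03 and 0.952. The 21 M B6 and 6 M DTR tendons were digested for the same time but differed in age, genotype and DT treatment. In 21 M B6 against 6 M DTR 36 nuclear genes were called lower and 1 higher, where 45.5% of all genes were lower and 14.2% higher. The 1 higher was Ndufaf4 with a ratio of 1.47, and the nuclear median was −0.29 beside −0.27 for all genes.

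In epitenon-like cells 83 nuclear genes were compared. No nuclear member passed the fold between 6 M DTR and 6 M WT, where 6.58% of all genes were higher and 9.11% lower, and the median was 0.04 beside 0.02. Between 21 M B6 and 6 M WT 18 were lower and 1 higher past the fold (all genes: 39% lower and 7.31% higher), and 2 were lower at a fold of 1.5 (all genes 8.75%), with a median of −0.25 that equals that of all genes. The 1 higher was Ndufa3, at 43.2, 53.3 and 55.4 CPM. In macrophage-like cells 9 of 83 were lower and 3 higher past the fold in 21 M B6 (all genes: 24.5% lower and 15.2% higher), and 0 were lower at a fold of 1.5 (all genes 8.79%). Against 6 M WT no nuclear member of macrophage-like cells passed the fold in 6 M DTR, where 6.71% of all genes were higher and 10.3% lower. Ndufb6 had the lowest ratio of 21 M B6 to 6 M WT in macrophage-like cells, at 105, 101 and 72.8 CPM (0.692), and was 114, 116 and 78.3 CPM in epitenon-like cells, so that it was low in 21 M B6 in each of the 3 classes. Ndufa3 at 55.2, 61.2 and 75.3 CPM, Atp5k at 139, 169 and 187 CPM and Ndufa1 at 141, 171 and 176 CPM were the 3 higher ones in macrophage-like cells.

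In the smaller classes the nuclear set spread to both sides. T cell-like cells had 9 of 82 genes higher and 14 lower past the fold between 21 M B6 and 6 M WT, where 13% and 41.2% of all genes were. Endothelial-like cells had 11 higher and 8 lower of 82, where 15.5% and 41.9% of all genes were, and a nuclear median of 0.07 beside −0.23 for all genes. Between the 6-month libraries 2 nuclear genes were higher and 6 lower in T cell-like cells (all genes: 19.2% and 15.8%), and 7 were higher and 3 lower in endothelial-like cells (all genes: 14.1% and 25.7%).

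Complex IV has subunits with isoforms that differ between tissues. Ndufa4 is a subunit of the oxidase, and Ndufa4l2 is its paralogue, known as a gene induced in hypoxia. Ndufa4l2 was at 495, 750 and 263 CPM in tenocyte-like cells. The ratio to 6 M WT was 1.51 (1.49 to 1.54) for 6 M DTR and 0.531 (0.511 to 0.551) for 21 M B6. Ndufa4 was at 193, 163 and 102 CPM in the same cells, so both paralogues were low in 21 M B6 and they differed in direction in 6 M DTR. After thinning each cell to 2000 UMIs, the shares of tenocyte-like cells with an Ndufa4l2 UMI were 56.2% (54.9 to 57.5), 63.2% (61.4 to 64.9) and 35.5% (32.6 to 38.6). A UMI was found in 1.93%, 1.22% and 0.217% of macrophage-like cells, which should lack the gene. Their median depths before thinning were 16150, 13141 and 13743 UMIs, and those of tenocyte-like cells 12904.5, 12384 and 11036 UMIs.

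Mural-like cells held Ndufa4l2 at 426, 416 and 362 CPM, close to each other, and Ndufa4 at 67.9, 39.0 and 134 CPM. Epitenon-like cells held Ndufa4l2 at 44.3, 38.6 and 26.8 CPM and Ndufa4 at 232, 190 and 130 CPM. T cell-like cells held Ndufa4 at 507, 471 and 518 CPM. Ndufa4 was thus low in 21 M B6 in tenocyte-like and epitenon-like cells, and also in endothelial-like cells by the levels given further below. In T cell-like and mural-like cells 21 M B6 had the highest level of the 3 libraries.

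Cox4i2 is the second isoform of the regulatory subunit 4, known for expression in lung and in vascular smooth muscle and pericytes, and Cox4i1 is the isoform of most tissues. Cox4i1 was at 826, 760 and 641 CPM in tenocyte-like cells and at 814, 819 and 659 CPM in epitenon-like cells. Cox4i2 was at 19.6, 44.8 and 2.98 CPM in tenocyte-like cells, a ratio of 2.29 (2.13 to 2.45) and of 0.152 (0.106 to 0.213) to 6 M WT. It therefore followed the order of Ndufa4l2 over the 3 libraries. The share of thinned tenocyte-like cells with a Cox4i2 UMI was 3.25%, 5.53% and 0.504%, beside 0.385%, 0.376% and 0.217% of macrophage-like cells. Mural-like cells held Cox4i2 at 177, 137 and 226 CPM, with 30.8%, 26.1% and 23.5% of thinned cells positive. Mural markers in tenocyte-like cells summed to 167, 179 and 94.3 CPM, and their part in the Cox4i2 level was not tested. In T cell-like cells of 6 M WT, Cox4i2 was at 36.8 CPM, and all 44 of its UMIs were in 1 of the 113 cells.

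Cox6a2, Cox7a1 and Cox8b are the isoforms of heart and skeletal muscle. Cox8b was at 3.92, 6.49 and 9.63 CPM and Cox6a2 at 0.854, 2.47 and 6.31 CPM in tenocyte-like cells of the 3 libraries, in the same order as the muscle fibre markers. In cells without a muscle fibre UMI the values were 3.91, 4.96 and 6.40 CPM for Cox8b and 0.334, 1.19 and 5.60 CPM for Cox6a2. Cox7a1 was at 0.800, 1.2 and 2.56 CPM in tenocyte-like cells, at 13.4, 15.3 and 14.4 CPM in macrophage-like cells and at 22.6, 26.6 and 35 CPM in mural-like cells. Cox6b2, known from testis, was at 13.1, 14.2 and 6.36 CPM in mural-like cells and below 1 CPM in tenocyte-like cells of all 3 libraries. The common isoforms Cox6a1 (220, 206 and 181 CPM), Cox6b1 (253, 238 and 207 CPM), Cox7a2 (307, 304 and 249 CPM), Cox7a2l (209, 188 and 171 CPM), Cox7b (205, 213 and 153 CPM) and Cox8a (482, 530 and 443 CPM) were by CPM all lower in 21 M B6 tenocyte-like cells than in those of 6 M WT, and Cox8a was higher under TMM. Cox7b2 and Cox8c did not pass 0.5 CPM in any class or library.

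**Figure D4:**
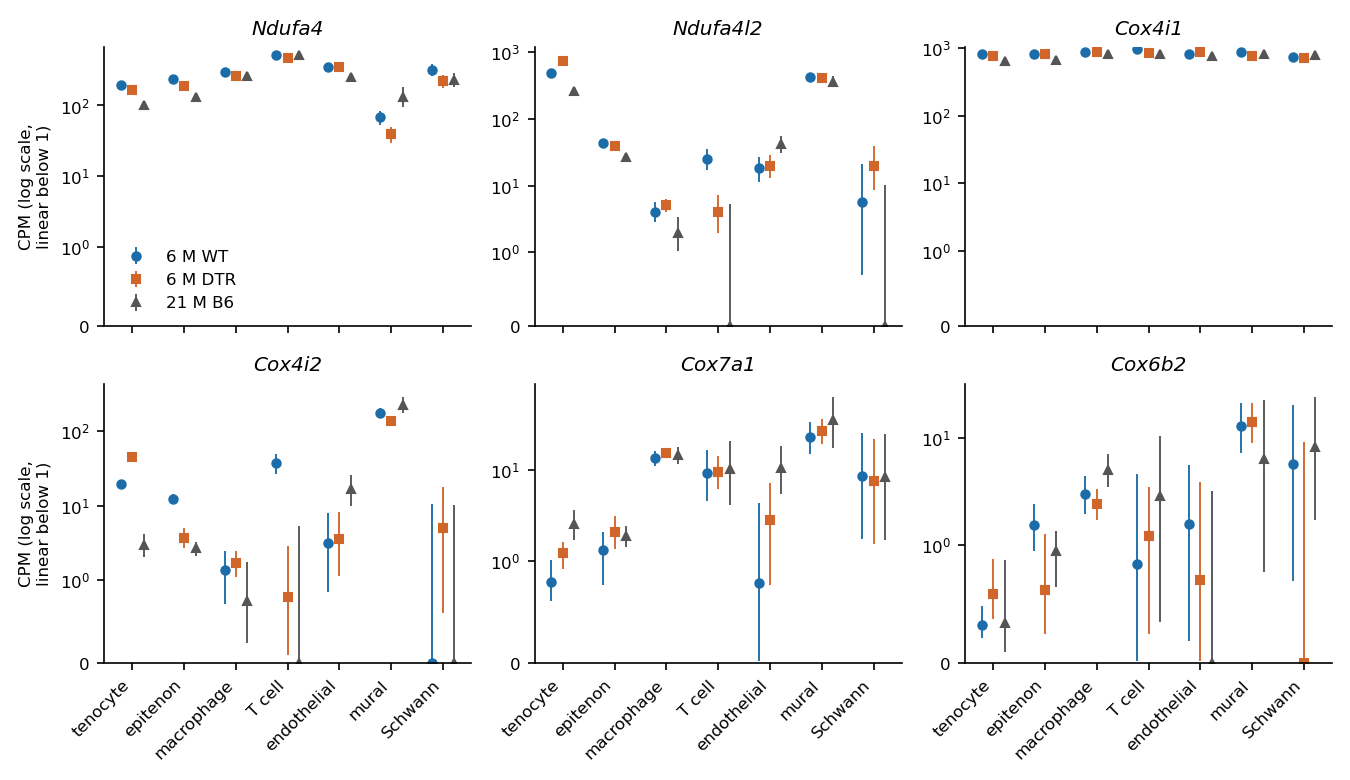
Level (CPM, log axis that is linear below 1) of Ndufa4, Ndufa4l2, Cox4i1, Cox4i2, Cox7a1 and Cox6b2 in 7 classes, 1 point per library with exact 95% counting intervals. Ndufa4l2 stands at 263 to 750 CPM in tenocyte-like and 362 to 426 CPM in mural-like cells, and Cox4i2 at 137 to 226 CPM in mural-like cells.

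Classes were compared across the 3 libraries by edgeR's quasi-likelihood test on counts summed per class and library, with the library as a block and Benjamini-Hochberg adjustment over all genes tested. Of the 91 nuclear members tested between tenocyte-like and epitenon-like cells, 2 were higher and 3 lower at an adjusted p under 0.05, where 11% of 14237 genes were higher and 14% lower. Ndufa4l2 was higher in tenocyte-like cells by 3.8 ± 0.45 (log2, SE; edgeR adjusted p = 2.23e-05) in 3 of 3 libraries and under each alternative tried. Cox8b was higher by 2.33 ± 0.35 (edgeR adjusted p = 0.000212), with log2 ratios of 4.07, 2.03 and 1.66 within the 3 libraries. Its levels given above were low in tenocyte-like cells and were lower still in epitenon-like cells. The 3 lower were Ndufs4 (−0.55 ± 0.15, edgeR adjusted p = 0.0171) and Ndufv3 (−0.43 ± 0.14, edgeR adjusted p = 0.0385), which both belong to the NADH-oxidising arm of complex I, and Atp5g3 (−0.31 ± 0.10, edgeR adjusted p = 0.0421). Over 11 settings, the reported one included, Cox8b was called in 10 (not without the block), Ndufs4 in 9, Atp5g3 in 4 and Ndufv3 in 3. Cox4i2 did not pass, at 1.85 ± 0.79 (edgeR adjusted p = 0.108). Of the mitochondrial genes 4 of 13 passed, all higher in tenocyte-like cells: mt-Nd6 by 0.50, mt-Nd5 by 0.38, mt-Co3 by 0.34 and mt-Co2 by 0.34, and none of the 4 was called without the block. Leaving out 6 M WT or 21 M B6 left 0 nuclear genes lower and 0 mitochondrial genes higher, and leaving out 6 M DTR left 1 of each. The shares of all genes called in these fits are not given here, so the counts cannot be set against all genes. Muscle fibre markers were also higher in tenocyte-like than in epitenon-like cells of each library (46.3, 113 and 187 against 32.2, 82.3 and 113 CPM), and their part in the Cox8b result was not tested.

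Tenocyte-like cells held less of the nuclear set than macrophage-like cells in many genes: 34 of 91 were lower and 12 higher, where 28.4% of all genes were lower and 30.6% higher, with a nuclear median of −0.20 beside 0.06 for all genes. All 4 genes of complex II were lower, as were 5 of 8 of complex III, 10 of 18 of complex IV, 6 of 17 of complex V and 8 of 36 complex I subunits. Sdhc, a membrane anchor, was at 39.3, 34.6 and 30.9 CPM in tenocyte-like and 68.5, 60.8 and 57.8 CPM in macrophage-like cells, a difference of −0.79 ± 0.11 on the log2 scale (edgeR adjusted p = 2.48e-05) with no overlap between the classes. Atp5mpl, a small membrane subunit of complex V, was at 90.2, 103 and 94.6 CPM against 230, 240 and 228 CPM (−1.23 ± 0.15, edgeR adjusted p = 5.95e-06). Cox7a1 (−3.40), Cox6b2 (−2.88) and Ndufa4 (−0.81) were the other lowest ones. Of the mitochondrial genes mt-Nd6 alone passed, at 34.6, 40.4 and 70.5 CPM against 24.7, 31.0 and 56.9 CPM (0.44 ± 0.14, edgeR adjusted p = 0.0117), and without the block or without 6 M WT it did not.

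The 12 genes higher in tenocyte-like than in macrophage-like cells were 6 complex I subunits, 3 complex I assembly factors and 3 isoforms of complex IV. The isoforms were Ndufa4l2 (7.03 ± 0.55 on the log2 scale, edgeR adjusted p = 5.47e-08), Cox4i2 (4.02 ± 0.97, edgeR adjusted p = 0.00252) and Cox8b (2.36 ± 0.38, edgeR adjusted p = 8.37e-05). Among the assembly factors, Ndufaf1 was higher by 1.30 ± 0.20 and Ndufaf4 by 1.10 ± 0.22 (edgeR adjusted p = 5.42e-05 and 0.000702). Both were also higher in epitenon-like than in macrophage-like cells, by 0.78 and 0.72, called in 8 and 9 of 11 settings and in neither case without 6 M WT or without 21 M B6. Without 6 M WT the counts were 7 higher and 15 lower, and without 6 M DTR 16 were lower, with the shares of all genes in these fits not given here.

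Between epitenon-like and macrophage-like cells 9 nuclear genes were higher and 23 lower, where 29.2% of all genes were higher and 26.6% lower. The median of the nuclear set was −0.12 beside 0.03. Ndufa4l2 again had the largest difference upwards (3.23 ± 0.50, edgeR adjusted p = 6.51e-05), and Cox7a1 (−3.13), Cox6b2 (−1.74), Cox6a2 (−1.71), Atp5mpl (−0.86) and Ndufa4 (−0.62) were the lowest. Cox6a2, a muscle isoform, was called in 8 of 11 settings. Muscle fibre markers summed to 39.9, 148 and 129 CPM in macrophage-like and 32.2, 82.3 and 113 CPM in epitenon-like cells. Their part in the Cox6a2 result was not tested. In the mitochondrial set the 3 oxidase genes and mt-Nd1 were lower in epitenon-like cells: the differences were −0.55 for mt-Co1, −0.47 for mt-Nd1, −0.46 for mt-Co2 and −0.32 for mt-Co3 on the log2 scale. mt-Co1 was at 4399, 4424 and 6309 CPM in epitenon-like and 6086, 6485 and 9297 CPM in macrophage-like cells, lower within each library. Without the block none of these 4 mitochondrial genes passed. Without 6 M WT the nuclear counts were 3 higher and 6 lower and no mitochondrial gene passed, and without 6 M DTR 10 nuclear genes were lower. These counts too stand without the shares of all genes in the same fits.

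Mural-like and endothelial-like cells, the outer and inner cells of the vessel wall, were compared in a second edgeR fit that admits classes of at least 30 cells, a choice made after the cell numbers were seen. Of 89 nuclear genes 27 were higher in mural-like cells and 7 lower, where 18.2% of 11915 genes were higher and 17.1% lower, and the nuclear median was 0.26 beside 0.00 for all genes. Without 6 M WT 11 were higher and 3 lower, and without 6 M DTR 3 were lower, with the shares of all genes in these fits not given here. Mural markers summed to 612, 639 and 2048 CPM in endothelial-like cells of the 3 libraries (7 of 7 detected) and to 16019, 16913 and 11973 CPM in mural-like cells, and the part of mural RNA in endothelial-like levels was not tested. The leading genes were isoforms of complex IV: Cox4i2 (4.52 ± 0.99, edgeR adjusted p = 0.00117), Cox6b2 (3.96 ± 0.77, edgeR adjusted p = 0.000403, no UMI in 21 M B6 endothelial-like cells), Ndufa4l2 (3.85 ± 0.50, edgeR adjusted p = 5.14e-06) and Cox7a1 (2.62 ± 0.45, edgeR adjusted p = 0.000119). Ndufa4 ran the other way, at 343, 343 and 250 CPM in endothelial-like cells against 67.9, 39.0 and 134 CPM in mural-like cells (−2.20 ± 0.32, edgeR adjusted p = 1.85e-05). The Cox6b2 difference rests on few UMIs in both classes. The mural-like sum of 21 M B6, where its level was lowest, held 34 cells and 314533 UMIs of all genes.

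Some common subunits were also higher in mural-like cells, and others were lower. Atp5md, a small subunit linked to dimers of complex V, was at 752, 498 and 1469 CPM in mural-like and 187, 170 and 203 CPM in endothelial-like cells (2.19 ± 0.26, edgeR adjusted p = 1.39e-06). Atp5d, the delta subunit, was at 435, 354 and 493 CPM against 145, 154 and 131 CPM, and Ndufb2, a membrane arm subunit, at 246, 175 and 318 CPM against 80.9, 96.3 and 95.6 CPM. In each of these genes the mural-like values lay above all endothelial-like ones. The 7 nuclear genes lower in mural-like cells, beside 27 higher, included common subunits as well. These were Cox7a2l (−1.23 ± 0.15), Ndufa8 (−0.76 ± 0.17), Ndufc2 (−0.54 ± 0.19) and Ndufa6 (−0.53 ± 0.14), on the log2 scale. Cox4i1 (−0.03) was not called. Of the 93 nuclear members 29 overlap a gene model on the other strand. The labels and methods do not state whether counting used the strand, and whether the counts of these members hold reads of the other gene was not tested. Atp5md, Atp5d and Ndufb2 are among them. So are Ndufa4l2, Cox4i1, Cox6a2, Ndufa11, Ndufb6, Ndufa3, Uqcrc2 and Atp5o, whose levels are given above. Taf5, the gene on the strand opposite to Atp5md, was at 34.0, 18.6 and 31.8 CPM in mural-like cells. In endothelial-like cells Taf5 was at 15.7, 15.5 and 12.2 CPM. The mitochondrial genes mt-Cytb (0.69 ± 0.13) and mt-Co3 (0.50 ± 0.13) were higher in mural-like cells, neither of them without the block, and 1 of them passed without 6 M WT or without 6 M DTR.

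The 13 mitochondrial genes did not differ evenly between the libraries. Against 6 M WT, all 13 were higher in 21 M B6 in tenocyte-like, epitenon-like, macrophage-like, T cell-like and endothelial-like cells, and all passed the fold except mt-Co1 in endothelial-like cells (1.12). Of all genes 9.72%, 7.31%, 15.2%, 13% and 15.5% were called higher in these classes, in the same order. In tenocyte-like cells mt-Co1, the catalytic subunit of complex IV, was at 4817, 5109 and 7632 CPM, a ratio of 1.58 to 6 M WT. mt-Atp8, a small subunit of complex V, was at 131, 148 and 514 CPM, a ratio of 3.92. mt-Nd3, a small subunit of complex I, was at 402, 426 and 1429 CPM (3.55) and mt-Nd4l, another, at 187, 234 and 604 CPM (3.23). Among the longer complex I genes mt-Nd2 was at 1617, 1734 and 4681 CPM (2.89), mt-Nd4 at 1540, 1853 and 3661 CPM (2.38), mt-Nd5 at 537, 653 and 1237 CPM (2.30) and mt-Nd1 at 1705, 1790 and 3071 CPM (1.80). The complex IV genes mt-Co3 (4590, 4648 and 9311 CPM) and mt-Co2 (3997, 4045 and 6852 CPM), mt-Cytb of complex III (2626, 2722 and 5006 CPM) and mt-Atp6 (6191, 5803 and 10276 CPM) had ratios of 2.03, 1.71, 1.91 and 1.66. mt-Nd6, the one gene read from the other strand, was at 34.6, 40.4 and 70.5 CPM (2.04).

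The order of these ratios was alike in the 5 classes. mt-Atp8 was first in each class (3.30 to 4.24), mt-Nd3 followed (2.95 to 3.66) and then mt-Nd4l (2.60 to 3.38), and mt-Co1 was 12th or 13th (1.12 to 1.58). The leading 3 are the shortest of the 13 genes, with 204, 348 and 297 bases, and mt-Co1 has 1545 bases. Length did not order the rest, since mt-Nd5, the longest with 1824 bases, had ratios of 1.72 to 2.61, and mt-Atp6 with 681 bases had ratios of 1.27 to 1.72. The 5 classes share their libraries, so they are not independent looks at this order. Barcodes of at least 500 UMIs in no class had median mitochondrial shares of 11.3%, 14.6% and 46.2% in the 3 libraries. The part of RNA from such barcodes in the mitochondrial UMIs of the gated cells was not tested. Of the UMIs of the 13 genes in tenocyte-like cells, mt-Atp8 took 0.462%, 0.507% and 0.945%, and mt-Nd2 took 5.70%, 5.94% and 8.61%. mt-Co1 took 17.0%, 17.5% and 14.0% and mt-Atp6 21.8%, 19.9% and 18.9%. The models of mt-Atp8 and mt-Atp6, of mt-Atp6 and mt-Co3 and of mt-Nd4l and mt-Nd4 overlap on 1 strand, so the split of reads within these pairs is uncertain. Those of mt-Nd5 and mt-Nd6 overlap on opposite strands, and whether the counts of either hold reads of the other was not tested.

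**Figure D5:**
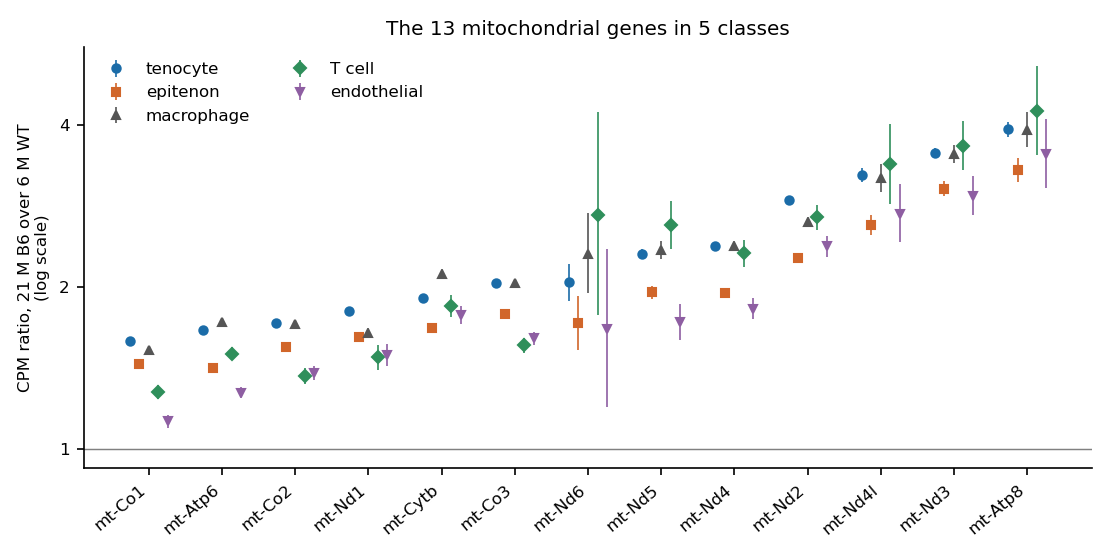
Ratio of CPM of 21 M B6 over 6 M WT (log axis) for each of the 13 mitochondrial genes in 5 classes, with exact 95% counting intervals and genes in order of their tenocyte-like ratio. In every class mt-Atp8, mt-Nd3 and mt-Nd4l lead, from 2.60 to 4.24, and mt-Co1 in endothelial-like cells (1.12) lies lowest.

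Between 6 M DTR and 6 M WT the mitochondrial genes differed less. In the 5 classes mt-Nd4l had ratios of 1.10 to 1.252, mt-Nd4 of 1.10 to 1.21, mt-Nd5 of 1.06 to 1.22 and mt-Nd6 of 1.09 to 1.79, while mt-Atp6 had the lowest ratio of the 13 in each class, from 0.821 to 0.970. By CPM the complex I genes mt-Nd4l, mt-Nd4, mt-Nd5 and mt-Nd6 were therefore above 1 in every class and mt-Atp6 was below it. The counting intervals held 1 for mt-Nd4l and mt-Nd5 in T cell-like cells and for mt-Nd6 in epitenon-like cells. In endothelial-like cells those of mt-Nd5 and mt-Nd6 held 1. The ratio of the summed mitochondrial set in tenocyte-like cells was 1.03 by CPM, 0.952 under TMM and 0.998 under a mitochondrial limit of 5%. In tenocyte-like cells mt-Nd4l was the 1 mitochondrial gene past the fold by CPM, at 187 and 234 CPM, where 16% of all genes were called higher. Under TMM, under a mitochondrial limit of 5% or with no upper limit on genes 0 passed it. The share of all genes was not computed under these alternatives.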

How the data were processed

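Single-cell RNA was captured by droplets and counted at 3′ ends in 3 libraries of pooled FDL tendons. The authors deposited filtered matrices of UMI counts per gene and barcode with no normalization. Per the labels they were made with Cell Ranger 2.1.1 and per the file headers with Cell Ranger 6.0.1; for the genome build and the use of strand in counting the sources used here give nothing. The 3 files list 15536, 16099 and 12273 barcodes and 148149903, 123918145 and 92707026 UMIs, in the order of libraries used in the report, with lowest barcodes of 500, 500 and 662 UMIs.

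The filter on barcodes was 1000 to 5000 genes and no more than 10% mitochondrial counts. Members and lists were chosen with earlier results of these data known. A cell entered a class with at least 2 UMIs for each of 3 of its markers, and cells that passed more than 1 gate (274, 219 and 230) were left out. No doublet caller was run. Counts were summed per class and library and given as CPM of all gene counts.

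Each group is 1 library, so libraries were compared by ratios with exact 95% binomial (Clopper-Pearson) or Poisson intervals, which cover counting error only, over genes with a mean of at least 10 CPM. A gene was called lower at a ratio of at most 0.8 and higher at its inverse. Classes were compared in edgeR 4.0.16 (R 4.3.3) by the quasi-likelihood test with TMM factors, the library as a block and Benjamini-Hochberg adjustment at 0.05. That fit held 5 classes with at least 50 cells in each library, and the added fit held classes with at least 30. The 3 libraries are blocks and not biological replicates of a condition. Alternatives were other mitochondrial limits (5%, 20% and none), no upper limit on genes, a gate of 4 markers, other scalings, no filter, no block, each library left out, and DESeq2 1.42.0.

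The text names the 13 mitochondrial genes, the complex IV isoforms, in each class comparison the 5 highest and 5 lowest members that passed with one direction in the 3 libraries, and in each library comparison the 5 highest and 5 lowest nuclear ratios in tenocyte-like, epitenon-like and macrophage-like cells, of which a part is printed. A gene that this rule names is not reported here. Other members are printed for their roles and were chosen after their values were seen. The edgeR test and the library ratios, which are no test, were tried on simulated counts. The ratios recovered 100% of genes changed by 2-fold in tenocyte-like cells. Those simulated counts held counting error only and no spread between libraries or mice, so they cannot vouch for differences between libraries. For tenocyte-like over epitenon-like cells (14237 genes), edgeR recovered 70% of genes changed by 2-fold and 26% of those changed by 1.5-fold, with 0.0427% false calls.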

Additional observations from a re-analysis of the deposited data

How the results depend on the processing

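Some ratios near 1 changed direction with the scaling or filter, as given below, and the cause of each change was not tested. Over the comparisons and alternatives, 201 values and counts kept within their limits and 114 moved outside them. Of the single named genes, 1165 class differences stayed on their side of the threshold while 38 became called and 102 were lost. Of the library ratios of named genes, 1238 stayed within the limits of the main setting and 625 moved outside them. The summed mitochondrial ratio of 21 M B6 to 6 M WT was 1.51 in tenocyte-like, 1.45 in epitenon-like and 1.49 in macrophage-like cells under a mitochondrial limit of 5%, then 2.13, 1.72 and 1.94 at 20% and 2.17, 1.73 and 1.95 with no limit. It was 2.22, 2.0 and 1.96 under TMM, 1.97, 1.69 and 1.94 per nuclear-encoded count, and 1.87, 1.63 and 1.85 without muscle fibre UMIs. With no upper limit on genes it was 1.86 in tenocyte-like and 1.87 in macrophage-like cells, with a stricter gate 1.90 in tenocyte-like and 1.65 in epitenon-like cells, and with cells of several gates kept 1.86 in both tenocyte-like and macrophage-like cells. The nuclear ratio was 0.946, 1.05 and 0.962 under TMM, 0.840, 0.884 and 0.952 per nuclear-encoded count and 0.791, 0.874 and 0.917 without muscle fibre UMIs. A 5% limit gave 0.793 in tenocyte-like and 0.990 in macrophage-like cells, a 20% limit 0.829 and no limit 0.829 in tenocyte-like cells, no upper limit on genes 0.827 in tenocyte-like and 0.854 in epitenon-like cells, and the stricter gate 0.861 in epitenon-like cells. For 6 M DTR over 6 M WT in tenocyte-like cells, the nuclear ratio was 1.01 at 5%, 1.01 without muscle fibre UMIs and 0.930 under TMM, and the mitochondrial ratio 0.998 at 5%, 1.05 at 20%, 1.05 with no limit, 1.01 with no upper limit on genes, 1.02 without muscle fibre UMIs and 0.952 under TMM. Nuclear genes lower in 21 M B6 numbered 11, 2 and 3 under TMM and 9, 2 and 0 at a fold of 1.5 in tenocyte-like, epitenon-like and macrophage-like cells. They numbered 29 in epitenon-like cells with no upper limit on genes, and in macrophage-like cells 4 at 5%, 4 per nuclear-encoded count and 19 without muscle fibre UMIs. Apart from the fold of 1.5, the share of all genes called was not computed under these alternatives.

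Between tenocyte-like and epitenon-like cells, without the replicate block, 1 nuclear gene was higher and 1 lower; 4 were higher with the stricter gate, and 1 was lower with DESeq2 size factors, 1 with no filter, 1 at 5% and 7 by DESeq2. No filter left 17 nuclear genes lower in tenocyte-like and 11 in epitenon-like cells against macrophage-like cells. Mitochondrial genes higher in tenocyte-like than in epitenon-like cells numbered 11 by DESeq2, 1 with no filter, 0 without the block and 0 at 5%. Against macrophage-like cells 2 were higher and 1 lower by DESeq2 and 0 higher without the block, and in epitenon-like cells 0 were lower without the block and 1 at 5%. In mural-like over endothelial-like cells 7 were higher by DESeq2, 0 without the block and 6 with no mitochondrial limit. Leaving out each library gave 0 to 1 nuclear genes lower and 0 to 1 mitochondrial genes higher for tenocyte-like over epitenon-like cells, 7 to 10 higher and 15 to 32 lower nuclear genes with 0 to 1 mitochondrial genes higher and 0 to 1 lower for tenocyte-like over macrophage-like cells, 3 to 7 higher and 6 to 22 lower with 0 to 4 mitochondrial genes lower for epitenon-like over macrophage-like cells, and 11 to 22 higher and 3 to 8 lower with 1 to 2 mitochondrial genes higher for mural-like over endothelial-like cells. For the class comparisons, the shares of all genes called under these alternatives are not given here, so the counts cannot be set against all genes. Without thinning, Ndufa4l2 was detected in 93.3%, 92.1% and 80.2% and Cox4i2 in 11.5%, 16.6% and 2.82% of tenocyte-like cells, and without muscle fibre UMIs Ndufa4l2 in 40.1% of the thinned 21 M B6 cells. Among barcodes with at least 500 UMIs the median mitochondrial share was 2.81%, 3.03% and 6.48% in tenocyte-like barcodes, 2.47% (6 M WT) and 4.39% (21 M B6) in epitenon-like ones and 3.20% (6 M WT) and 3.35% (6 M DTR) in macrophage-like ones. No paired analysis was possible between libraries because each group is 1 library. Mural-like over endothelial-like cells could not be fitted at a 5% limit, which left no mural-like cells in 21 M B6. Pools of 16 tendons without replicates leave the spread between mice unmeasured in every library comparison.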

Other observations

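Other mitochondrial gene lists were compared by CPM as ratios of 21 M B6 to 6 M WT in tenocyte-like cells, with the median of all genes at −0.25 on the log2 scale and 39.5% of genes called lower (a ratio of at most 0.8). Mitochondrial ribosomal proteins, which translate the 13 mitochondrial messages, had 54 of 73 genes lower past the fold, 1 higher and a median of −0.42. Genes of the electron carriers cytochrome c and coenzyme Q and of their synthesis had 7 of 12 lower, 1 higher and a median of −0.49, and tricarboxylic acid (TCA) cycle enzymes 9 of 17 lower and a median of −0.33. Complex IV assembly factors had 4 of 13 lower with a median of −0.17, genes of mitochondrial DNA maintenance and transcription 2 of 6 lower and 1 higher with a median of −0.15, and regulators of mitochondrial biogenesis 0 of 5 lower with a median of −0.09. The medians of the last 3 lists lie above that of all genes, and these lists were not computed under TMM. In macrophage-like cells 23 of 72 mitochondrial ribosomal proteins were lower (median −0.23), against 24.5% of all genes, and in epitenon-like cells 45 of 71, against 39% of all genes. These differences were not tested, since each group is 1 library.

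Between mural-like and endothelial-like cells 8 of 17 TCA cycle enzymes were higher and 0 lower by edgeR's quasi-likelihood test with Benjamini-Hochberg adjustment, with a median of 0.46 on the log2 scale, and 7 of 16 genes of the electron carriers were higher with a median of 0.69. Mitochondrial ribosomal proteins divided there into 5 higher and 9 lower of 78. Of all genes tested there, 18.2% were higher and 17.1% lower.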
